A study of Homo sapiens with 18 samples.

Results

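The genes described here are the transcription factor NRF2 (gene NFE2L2), its repressor KEAP1 and 8 antioxidant targets: NQO1, HMOX1, GCLC, GCLM, SLC7A11, TXNRD1, SRXN1 and ME1. They were chosen by symbol with earlier results of these data known, as were the gene lists used below, so their counts beside all genes are descriptions. All 10 were found by Entrez number among the 18475 genes of the deposited table. mRNA was measured by RNA-seq in 3 human lung lines: BEAS-2B, an immortalized bronchial epithelial line; A549, a lung adenocarcinoma line; and H446, a small cell lung cancer line. Each line was measured in 3 unirradiated control libraries and in 3 libraries given 10 Gy of X-rays, 18 libraries in all, and the design text puts the sequencing 24 h after irradiation. The sample titles call the controls before and the irradiated libraries after, and no time is given for the controls. Irradiation and time in culture or handling therefore cannot be told apart, and all differences after irradiation given below carry this limit. The labels call the genotype of every group wild type and name no drug, transgene or selected clone. Values are FPKM, fragment counts scaled for transcript length and library size, a unit that was inferred because it is not named. The total FPKM per library lay between 461255 and 529936. Read counts per library are unknown.

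NRF2 switches on genes that make glutathione, recycle thioredoxin, break down haem and supply NADPH. In unstressed cells KEAP1 binds NRF2 and hands it to a CUL3 ubiquitin ligase for destruction, and oxidants or electrophiles that modify KEAP1 cysteines let NRF2 build up and bind, with a small MAF partner, the antioxidant response element of its targets. This control acts largely on the NRF2 protein, which RNA values do not measure, and A549 is widely used as a line in which KEAP1 function is lost by mutation.

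The lines were checked against markers of cell identity. Of 5 epithelial markers, 4 had a mean of at least 1 FPKM in the controls of each line, led by KRT8, whose mean was 522 FPKM for BEAS-2B, 533 for A549 and 1368 for H446. EPCAM was the exception in A549 (0.49 FPKM) and CDH1 in the others. The neuroendocrine markers went against the small cell label of H446. In its controls CHGA had a mean of 0.017 FPKM, SYP 0.19 and NCAM1 0.0033, whereas BEAS-2B controls had 4.66 FPKM of NCAM1 and A549 controls 1.99 of SYP and 1.01 of CHGA. NEUROD1 and INSM1 were not analysed here. H446 is therefore called by its line name below. Alveolar markers were under 1 FPKM in the controls of every line (4 of 4 genes). Of 6 fibroblast, leukocyte and endothelial markers, 2 reached 1 FPKM in BEAS-2B controls (COL1A1 and CD14), 2 in H446 controls (COL1A1 and PECAM1) and 1 in A549 controls (COL1A1), and PTPRC was at or near 0 in each. Of 3 airway basal markers, 0 reached 1 FPKM in the controls of BEAS-2B or A549, and 1 did in H446 (KRT14, 2.17 FPKM). KRT14 was at 0 in BEAS-2B controls, KRT5 at 0.01 and TP63 at 0.16.

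By the response of p53 targets, 1 library stood apart from its group. Over 8 p53 target genes, which radiation is known to raise, the median log2 difference from the control mean was 1.13 and 1.41 in BEAS-2B 10 Gy replicates 1 and 3, but 0.09 in the library labelled replicate 2. CDKN1A read 310 and 488 FPKM in replicates 1 and 3 and 102 in that library, beside 79.9 to 86.4 in the controls. This holds for the p53 targets. Spearman's rho across genes between GC content and a library's deviation from the mean of its line was instead lowest in replicate 3 (-0.282), beside 0.429 and 0.663 in replicates 1 and 2. Results on the 10 genes and counts of the pathway and ATF4 lists that rest on irradiated BEAS-2B cells are given with and without replicate 2, and those on the 10 genes also without replicate 3 where that changes a call. In A549 the same median was 1.36 to 1.40 in the irradiated libraries, and in H446 it was -0.10 to 0.09.

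Promoters of 8 of the 10 genes were in the RefSeq table used here (GRCh38.p14, 250 bases before to 50 after each start), which gave 11 windows. SLC7A11 and HMOX1 are named only. They were searched on both strands for the core letters of the antioxidant response element, TGACNNNGC. The letters were found in 4 of the 8 genes, GCLM, TXNRD1, ME1 and KEAP1, against 18.5% of the 14417 genes of the table that have a window (2664 genes). Of the genes with a window in the lists described below, 15 of 40 pathway genes (37.5%) held the letters. So did 3 of 7 p53 targets (42.9%) and 1 of 7 genes of the ATF4 list (14.3%). Nothing particular to NRF2 targets is drawn from the letters. The stretches before the starts of TXNRD1 and ME1 that hold them, outside annotated exons, are shown because both are targets whose levels are compared below. Capitals mark the match, and the gene's own strand is given, plus for TXNRD1 and minus for ME1.
TXNRD1, chr12:104215655-104215713: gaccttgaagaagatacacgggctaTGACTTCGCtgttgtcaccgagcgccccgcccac
ME1, chr6:83431155-83431213: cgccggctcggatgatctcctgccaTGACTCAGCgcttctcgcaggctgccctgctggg
The first window of TXNRD1 held 1 more match, across the start, and that of ME1 held 1 more after the start. In GCLM and in the second windows of TXNRD1 and KEAP1 the matches lie within annotated exons and are not shown in context. The match in GCLM read GCTTAGTCA, on the reverse strand. NFE2L2, NQO1, GCLC and SRXN1 had no match in these windows, which says only that the letters are not there.

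NFE2L2 (Entrez 4780; chromosome 2, 177227595 to 177392697 in GENCODE 29 on GRCh38) was highest in A549. The control libraries read 49.2, 49.5 and 50.5 FPKM in BEAS-2B, 53.5, 51.6 and 51.5 in H446, and 96.1, 91.8 and 95.02 in A549. Every A549 control lay above every control of the other lines. The log2 difference of A549 from BEAS-2B was 0.91 (SE 0.040, limma adjusted p = 2.1e-10), and from H446 it was 0.84 (SE 0.040, adjusted p = 4.15e-10). Neither reached the difference of at least 1 on the log2 scale that, with an adjusted p under 0.05, was asked of a call between lines, although after quantile normalization the difference from BEAS-2B was called at 1.06 (adjusted p = 6.42e-11). In such bulk RNA, fewer cells with a transcript and less of it per cell cannot be told apart. H446 and BEAS-2B did not differ past the threshold (0.07, SE 0.040, adjusted p = 0.129), although their libraries did not overlap, and with each library's trend on GC content removed the difference was 0.10 (adjusted p = 0.0266).

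KEAP1 (Entrez 9817; chromosome 19, 10486120 to 10503741) had another order. Its controls read 17.7, 18.4 and 17.1 FPKM in BEAS-2B, 15.1, 16.2 and 15.7 in A549, and 8.66, 8.55 and 9.40 in H446. H446 held the lowest KEAP1 mRNA of the 3 lines, at 0.5 times the mean of BEAS-2B (log2 difference -0.93, SE 0.055, adjusted p = 5.16e-09), which missed the limit of 1. A549 was close to BEAS-2B, with a log2 difference of -0.17 (SE 0.055, adjusted p = 0.0117). With the GC trend removed it was -0.03 (adjusted p = 0.559).

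Of the 10 genes, 5 were called higher in A549 than in BEAS-2B controls and 0 lower: NQO1, SLC7A11, ME1, GCLC and SRXN1, all targets. Among all 12854 genes tested, 27.1% were called, 12.9% higher and 14.2% lower. The median log2 difference of the 10 genes was 1.26, beside -0.07 over all genes tested. Against H446 controls, 3 of the 10 were called higher in A549 (NQO1, SRXN1 and ME1) and 0 lower, where 28% of all genes were called, 14.7% higher and 13.4% lower. Against BEAS-2B controls, 2 of the 10 were called higher in H446 (SLC7A11 and NQO1) and 0 lower; of all genes 24.1% were called, 11.2% higher and 12.9% lower. These 3 contrasts share their control libraries in pairs, so the counts are not independent.

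**Figure D1:**
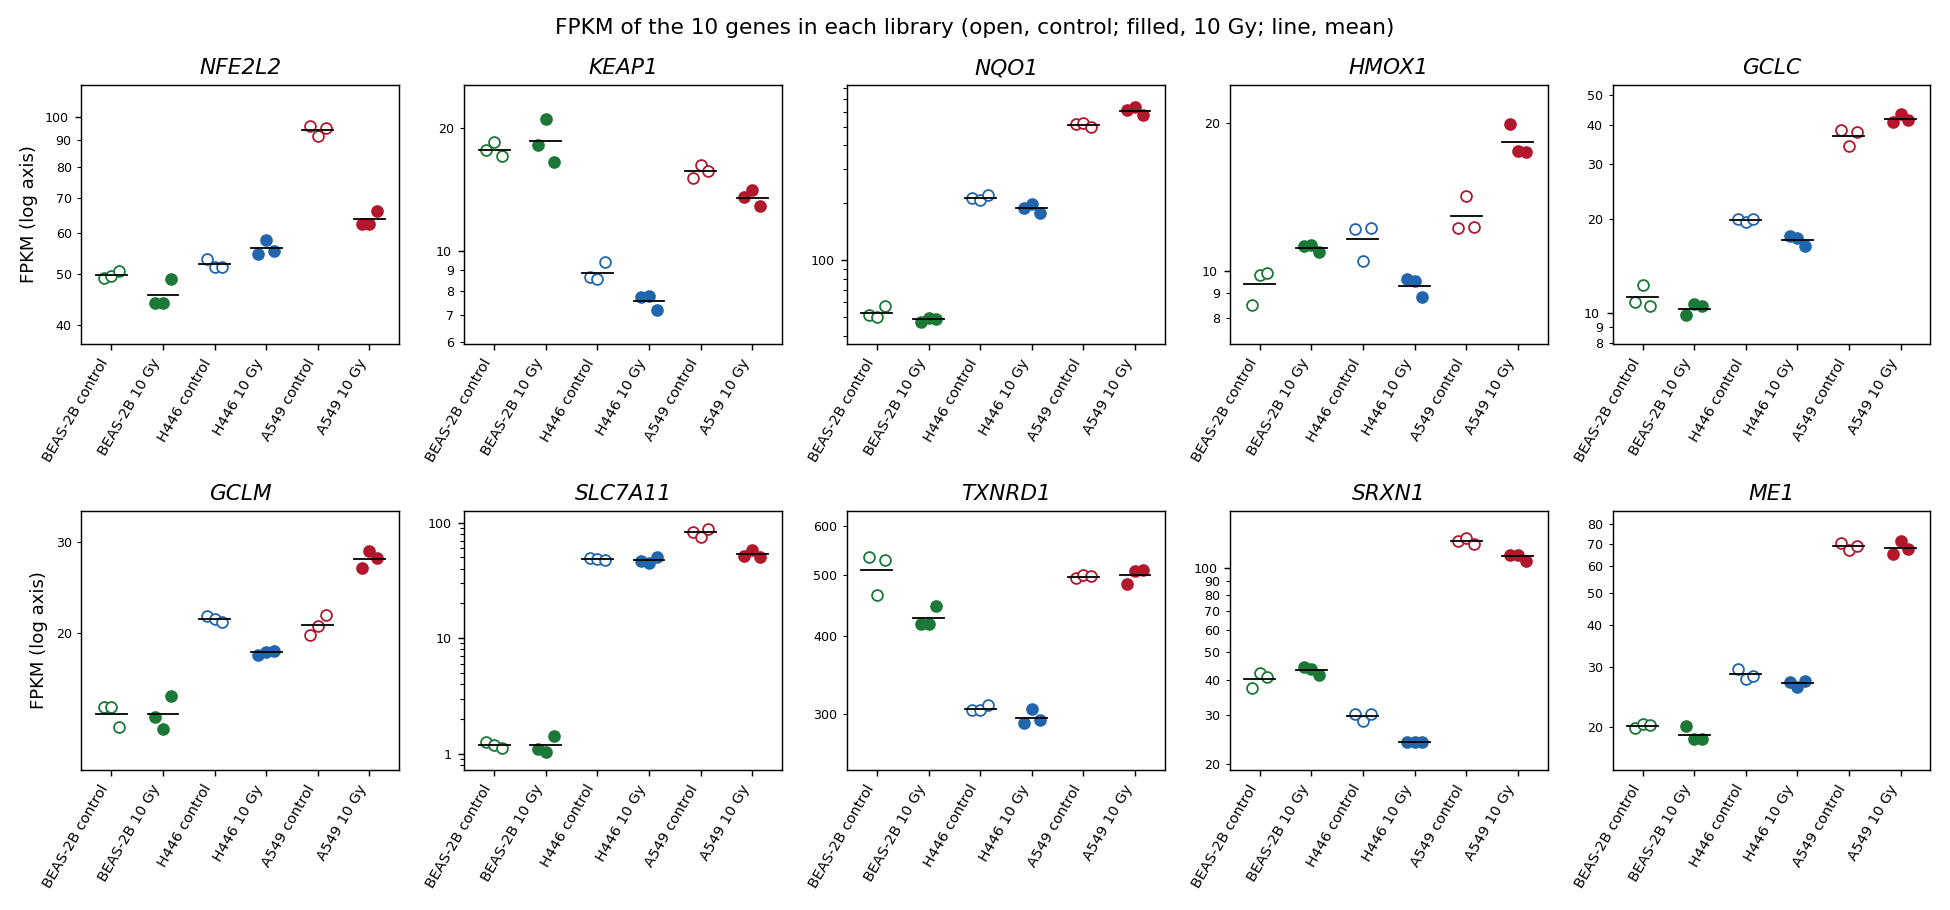
FPKM of each of the 10 genes in the 18 libraries, on log axes that differ between panels; open points are controls, filled points 10 Gy, and the line is the mean of 3 libraries. Among the controls, NQO1, SLC7A11, SRXN1, ME1, GCLC, NFE2L2 and HMOX1 had their highest mean in A549, and SLC7A11 lay near 1 FPKM in BEAS-2B.

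The quinone reductase NQO1 (Entrez 1728; chromosome 16, 69706996 to 69726951) differed between all 3 lines. Controls read 51.5, 50.5 and 57.1 FPKM in BEAS-2B, 212, 206 and 220 in H446, and 516, 525 and 499 in A549. The 3 lines did not overlap. The A549 mean was 9.68 times that of BEAS-2B (log2 difference 3.25, SE 0.052, adjusted p = 1.63e-14) and 2.42 times that of H446 (1.27, SE 0.052, adjusted p = 1.07e-10), and H446 stood at 4.01 times BEAS-2B (1.98, SE 0.052, adjusted p = 1.72e-12).

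Glutathione synthesis is represented by the cystine importer SLC7A11 and by both subunits of the rate-limiting glutamate-cysteine ligase, the catalytic GCLC and the modifier GCLM. SLC7A11 (Entrez 23657; chromosome 4, 138164097 to 138242349) had the widest range of the 10 genes. It read 1.27, 1.19 and 1.11 FPKM in BEAS-2B controls, 49.3, 48.4 and 47.4 in H446, and 83.3, 75.4 and 88.6 in A549. BEAS-2B was thus just above the filter of 1 FPKM, and the ratio of means was 69.2 for A549 (log2 difference 5.25, SE 0.060, adjusted p = 7.04e-16) and 40.6 for H446 (4.49, SE 0.060, adjusted p = 3.3e-15). The scale of the test, log2(FPKM + 1), understates ratios at such low values. A549 exceeded H446 by 0.75 on the log2 scale (SE 0.060, adjusted p = 7.77e-08), short of the limit of 1.

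GCLC (Entrez 2729; chromosome 6, 53497341 to 53616970) followed the same order with smaller steps. Its controls read 10.8, 12.2 and 10.5 FPKM in BEAS-2B, 19.99, 19.5 and 20.02 in H446, and 38.6, 34.4 and 38.0 in A549. A549 was called above BEAS-2B, at 3.30 times its mean (log2 difference 1.64, SE 0.062, adjusted p = 5.12e-11), and differed from H446 by 0.86 (SE 0.062, adjusted p = 2.85e-08). GCLM (Entrez 2730; chromosome 1, 93885205 to 93909456) did not share the step between the cancer lines. Controls read 14.4, 14.4 and 13.2 FPKM in BEAS-2B, 21.6, 21.4 and 21.0 in H446, and 19.9, 20.7 and 21.7 in A549, so that the cancer lines overlapped (log2 difference -0.04, SE 0.052, adjusted p = 0.512; with the GC trend removed -0.13, adjusted p = 0.0479). A549 exceeded BEAS-2B by 0.54 (SE 0.052, adjusted p = 5.79e-07). The subunits of the enzyme therefore differed between lines by unequal amounts, and that inequality was not itself tested.

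TXNRD1, the cytosolic thioredoxin reductase (Entrez 7296; chromosome 12, 104215779 to 104350305), was abundant in every line and not highest in A549. It read 535, 465 and 529 FPKM in BEAS-2B controls, 305, 304 and 311 in H446, and 495, 500 and 499 in A549. A549 lay inside the range of BEAS-2B (log2 difference -0.03, 95% confidence interval -0.15 to 0.09, adjusted p = 0.617), and H446 was lower than BEAS-2B by 0.73 (SE 0.056, adjusted p = 6.72e-08). SRXN1, sulfiredoxin, which restores overoxidized peroxiredoxins (Entrez 140809; chromosome 20, 646615 to 653370), set A549 apart. Its controls read 37.4, 42.1 and 41.1 FPKM in BEAS-2B, 30.3, 28.6 and 30.1 in H446, and 124, 128 and 122 in A549. The mean of A549 was 3.10 times that of BEAS-2B (log2 difference 1.61, SE 0.050, adjusted p = 7.99e-12) and 4.20 times that of H446 (2.04, SE 0.050, adjusted p = 7.69e-13).

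The malic enzyme ME1, a cytosolic source of NADPH (Entrez 4199; chromosome 6, 83210389 to 83431071), read 19.8, 20.4 and 20.3 FPKM in BEAS-2B controls, 29.8, 27.8 and 28.3 in H446, and 70.5, 67.3 and 68.9 in A549. The A549 mean was 3.42 times that of BEAS-2B (log2 difference 1.72, SE 0.043, adjusted p = 9.8e-13) and 2.41 times that of H446 (1.24, SE 0.043, adjusted p = 2.12e-11). HMOX1, the inducible haem oxygenase (Entrez 3162; chromosome 22, 35380361 to 35394214), was the target with the smallest spread over lines. It read 8.51, 9.78 and 9.91 FPKM in BEAS-2B controls, 12.2, 10.5 and 12.2 in H446, and 12.2, 14.2 and 12.3 in A549. A549 and H446 were neighbours that did not differ past the threshold (0.14, 95% confidence interval -0.04 to 0.31, adjusted p = 0.124; with the GC trend removed 0.18, adjusted p = 0.0297), while A549 exceeded BEAS-2B by 0.42 (SE 0.080, adjusted p = 0.000327).

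**Figure D2:**
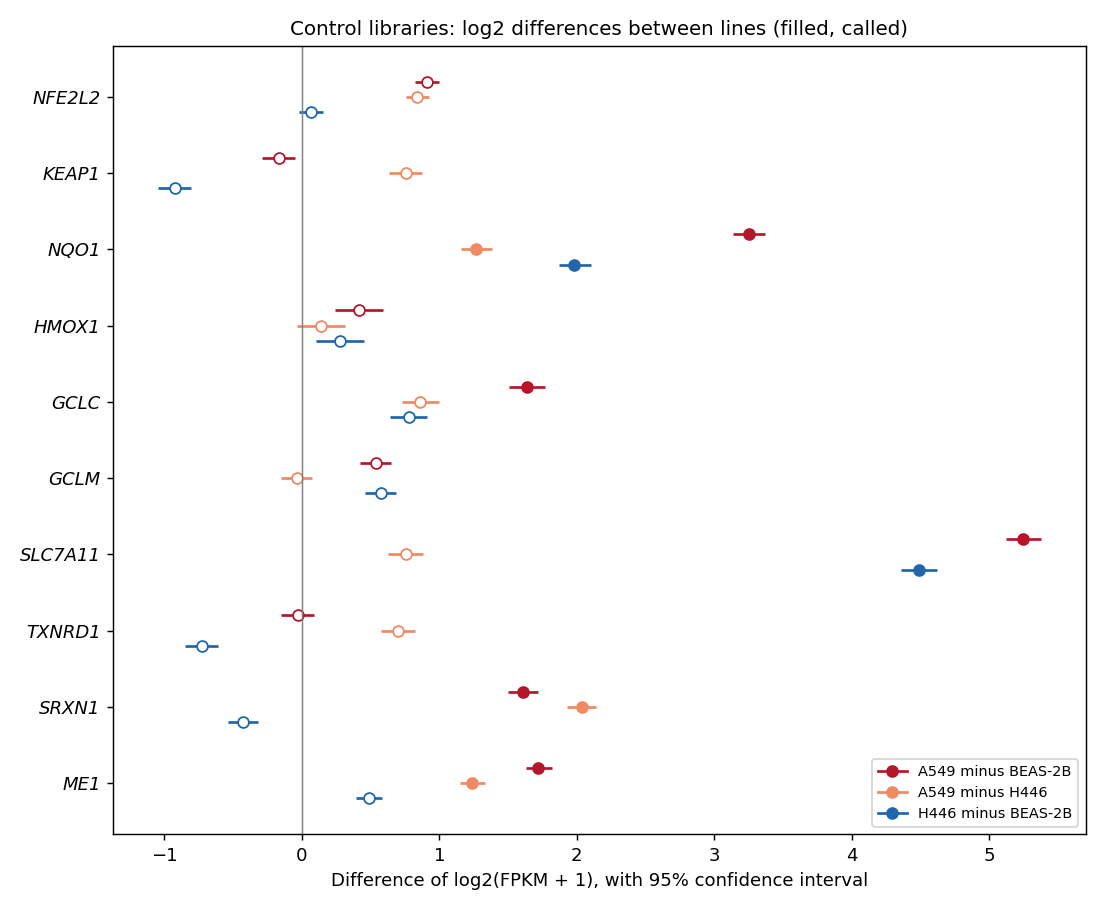
Differences between the control libraries of the lines for each gene on the log2(FPKM + 1) scale, with 95% confidence intervals from limma (3 libraries per line); filled points were called at an adjusted p under 0.05 and a difference of at least 1. SLC7A11 (5.25) and NQO1 (3.25) lie farthest to the right for A549 against BEAS-2B, and TXNRD1 (-0.03) lies at 0.

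Other genes of the pathway were described from 7 lists of 53 genes. In A549 against BEAS-2B controls 52 were tested, of which 30 were called higher and 2 lower, where 27.1% of all genes were called, 12.9% higher and 14.2% lower. The median log2 difference was 1.39, beside -0.07 over all genes. Of the 52, 9 had a mean under 1 FPKM in BEAS-2B controls and passed the filter through the cancer lines, so that a difference toward those lines was built in for them, and of the other 43, 21 were called higher and 2 lower. In the list on conjugation, reduction and export 12 of 13 genes were called higher and 0 lower, but 7 of the 13 were such genes, and of its other 6, 5 were called higher. ALDH3A1, an aldehyde dehydrogenase, had a mean of 657 FPKM in A549 and 0.12 in BEAS-2B (log2 difference 9.20), and the aldo-keto reductases AKR1B10 (486 against 0.013 FPKM, 8.91) and AKR1C2 (239 against 0.24 FPKM, 7.60) came next. Among the aldo-keto reductases, AKR1C1, AKR1C2 and AKR1C3 had means of 221, 239 and 340 FPKM in A549 and 146, 142 and 216 in H446, which were 1.51, 1.69 and 1.58 times as high in A549 and short of a call, whereas AKR1B10 read 0.27 in H446. The AKR1C genes are near copies of each other and may share reads.

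NADPH supply had 4 of 5 genes called higher in A549 than in BEAS-2B and 0 lower, among them PGD of the pentose phosphate pathway (log2 difference 3.19) and the transketolase TKT (1.34). In the glutathione list 4 of 8 tested genes were called higher and 1 lower. GGT1, which cleaves extracellular glutathione (3.92), and SLC3A2, the heavy chain that pairs with SLC7A11 (2.16), were higher, and the transferase GSTM3 was lower (-2.06). The haem and iron list had 3 of 6 called higher, with the biliverdin reductase BLVRB at 1.79 and the ferritin chains FTH1 at 1.6 and FTL at 1.03. Of the thioredoxin list 1 of 5 was called, SESN2 (2.13), a share near that of all genes. All 4 genes of the list of other NRF2 targets were called higher, led by TRIM16L (4.21), NR0B1 (3.22) and OSGIN1 (2.87). NR0B1 and GGT1 are among the genes under 1 FPKM in BEAS-2B controls, and NR0B1 passed the filter through A549 alone, so their calls carry the same limit. The regulators were mixed, with 2 of 11 called higher, the small MAF gene MAFK (1.91) and NFE2L1 (1.09), and 1 lower, the ubiquitin ligase subunit RBX1 (-1.78), again near the share of all genes.

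Of the same 52 genes, 18 were called higher and 2 lower in A549 than in H446 (median 0.51, beside 0.01 over all genes), where 28% of all genes were called, 14.7% higher and 13.4% lower. AKR1B10, CYP4F11 and NR0B1 were under 1 FPKM in H446 and BEAS-2B controls and passed the filter through A549 alone, and of the other 49 genes 15 were called higher and 2 lower. Between H446 and BEAS-2B 21 were called higher and 2 lower (median 0.70, beside -0.10 over all genes), where 24.1% of all genes were called, 11.2% higher and 12.9% lower. The 52 again include the 9 genes under 1 FPKM in BEAS-2B, so the count of 21 and the median carry the limit given above. BLVRB (2.22) and PGD (1.96) were among the genes higher in A549 than in H446, and NFE2L3, a relative of NRF2, was higher in A549 than in H446 (2.89) and lower in H446 than in BEAS-2B (-2.12).

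The mean profile of the 8 targets over the 18 libraries, each gene centred on its mean log2 value, lay at -0.94 to -0.88 for BEAS-2B libraries, -0.14 to 0.07 for those of H446 and 0.91 to 1.02 for those of A549. It was compared with 8570 genes that had a mean of at least 10 FPKM in some group, by the root mean square difference on the log2 scale. Outside the 10 genes and the lists, the 5 nearest profiles over the 18 libraries were those of CASP8 (0.12), SIPA1L2 (0.13), PLD1 (0.14), PLPP6 (0.15) and ABLIM3 (0.16). All 5 lay nearer than every target except GCLC (0.08). By distance GCLC ranked 1 and ME1 12 among the 8570 genes, and the other targets ranked from 538 (GCLM) to 8015 (SLC7A11). The mean is therefore not a profile that the targets share. CASP8, an initiator caspase, had control means of 39.4 FPKM for A549, 23.4 for H446 and 11.9 for BEAS-2B.

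The second question was whether the genes differed 24 h after 10 Gy within each line. In A549, 8 of the 10 were called at an adjusted p under 0.05, 4 higher and 4 lower, where 51.7% of the 11993 genes tested were called, 25.3% higher and 26.4% lower. In H446, 6 of the 10 were called and all 6 were lower, where 38.4% of 11479 genes were called, 14.8% higher and 23.6% lower. After quantile normalization the H446 calls over all genes split into 2171 higher and 2188 lower in place of 1698 and 2709, and the 10 genes into 1 higher (NFE2L2) and 5 lower (without KEAP1). In BEAS-2B, 0 of the 10 were called and 0% of 11734 genes were, with limma, although 1446 genes had an unadjusted p under 0.05. Without BEAS-2B 10 Gy replicate 2, 233 genes were called there, 1.99% of 11680, and still 0 of the 10. All called changes among the 10 genes were under 1 on the log2 scale.

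NFE2L2 fell in A549. The irradiated libraries read 62.4, 62.4 and 66.0 FPKM, all below the 3 controls given above (91.8 to 96.1). The log2 difference was -0.56 (SE 0.038, adjusted p = 2.89e-07), a mean lower by 32.6%. After irradiation H446 read 54.7, 58.2 and 55.3 FPKM, above its controls but not past the threshold (0.10, SE 0.038, adjusted p = 0.0564). It was called without 10 Gy replicate 1 (0.12, adjusted p = 0.0364), after quantile normalization (0.11, adjusted p = 0.0413) and with equal library totals (0.12, adjusted p = 0.0325). BEAS-2B read 44.0, 43.9 and 49.0 FPKM, a difference of -0.12 (SE 0.073, adjusted p = 0.499), and -0.10 without replicate 2 (adjusted p = 0.718). The response of A549 was lower than that of BEAS-2B by a log2 difference of -0.44 (SE 0.066, adjusted p = 9.54e-05; -0.46 without BEAS-2B 10 Gy replicate 2), and than that of H446 by -0.66 (SE 0.066, adjusted p = 9e-07).

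KEAP1 was called lower in both cancer lines. It read 13.6, 14.1 and 12.9 FPKM in irradiated A549 cells (log2 difference -0.20, SE 0.052, adjusted p = 0.00649) and 7.73, 7.76 and 7.20 in irradiated H446 cells (-0.20, SE 0.058, adjusted p = 0.018). The groups of each line did not overlap. The call in H446 was lost without 10 Gy replicate 3 (-0.17, adjusted p = 0.0624), without control replicate 3 (-0.17, adjusted p = 0.078), after quantile normalization (-0.16, adjusted p = 0.0504) and with the GC trend removed (-0.05, adjusted p = 0.58). BEAS-2B read 18.2, 21.0 and 16.5 FPKM, around its controls (0.06, SE 0.093), and the difference was -0.03 without replicate 2. The responses of A549 and H446 differed by 0.00 (95% confidence interval -0.20 to 0.21, adjusted p = 0.976), or by -0.13 with the GC trend removed (adjusted p = 0.225), when the change in A549 was -0.19 (adjusted p = 0.0078).

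Deviation along GC content separated the H446 groups. Spearman's rho between transcript GC content and a library's deviation from the mean of its line, taken across genes, was 0.315 to 0.424 in the H446 controls and -0.462 to -0.0988 in the irradiated libraries, while in A549 it was -0.0944 to 0.153 and -0.125 to 0.133. In BEAS-2B it was -0.595 to 0.0018 in the controls and -0.282 to 0.663 after irradiation, highest in replicate 2. Genes are not independent replicates, so these are descriptions. What part this has in the H446 results was tested only by removing each library's trend, after which 1814 genes were called higher and 1703 lower there. With it removed, NQO1 (-0.19), GCLC (-0.22), GCLM (-0.28) and SRXN1 (-0.22) were still called lower in H446, HMOX1 was not (-0.16, adjusted p = 0.0797), and ME1 was (-0.15, adjusted p = 0.0181).

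Among the targets, NQO1 rose in A549 and fell in H446. Irradiated A549 libraries read 612, 633 and 580 FPKM, all above the controls (log2 difference 0.24, SE 0.042, adjusted p = 0.000434). Irradiated H446 libraries read 187, 197 and 177 FPKM, all below theirs (-0.18, SE 0.045, adjusted p = 0.00862). The responses of these lines differed by 0.43 (SE 0.075, adjusted p = 0.000311). BEAS-2B read 47.5, 49.9 and 49.3 FPKM (-0.11, SE 0.074, adjusted p = 0.537, and -0.13 without replicate 2).

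The ligase subunits and the cystine importer went opposite ways in A549. GCLM rose, with 26.7, 28.8 and 28.0 FPKM after irradiation against 19.9 to 21.7 before (0.41, SE 0.048, adjusted p = 2.52e-05), and GCLC rose less, to 41.0, 43.5 and 41.5 FPKM (0.18, SE 0.049, adjusted p = 0.0087). SLC7A11 fell to 51.9, 58.1 and 50.9 FPKM from 75.4 to 88.6, the largest change among the 10 genes in any line (-0.61, SE 0.062, adjusted p = 7.67e-06). The groups of A549 did not overlap for any of these 3 genes. In H446, GCLM fell to 18.2, 18.4 and 18.5 FPKM (-0.21, SE 0.039, adjusted p = 0.00269) and GCLC to 17.6, 17.4 and 16.4 (-0.20, SE 0.044, adjusted p = 0.00494), while SLC7A11 at 46.6, 44.5 and 50.3 FPKM overlapped its controls (-0.04, adjusted p = 0.554). In irradiated BEAS-2B cells GCLM read 13.8, 13.1 and 15.1 FPKM, GCLC 9.82, 10.7 and 10.5, and SLC7A11 1.09, 1.04 and 1.41. All 3 genes overlapped their controls there, with log2 differences of 0.00 for GCLM, -0.10 for GCLC and -0.01 for SLC7A11, and of 0.04, -0.13 and 0.04 without replicate 2.

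HMOX1 had the largest rise of the 10 genes in A549. It read 19.9, 17.6 and 17.4 FPKM after irradiation against 12.2 to 14.2 before (0.48, SE 0.067, adjusted p = 0.000109), a mean higher by 42%. In H446 it fell to 9.60, 9.51 and 8.83 FPKM (-0.29, SE 0.066, adjusted p = 0.00641), a call lost with the GC trend removed (-0.16, adjusted p = 0.0797). BEAS-2B read 11.2, 11.3 and 10.9 FPKM, above its 3 controls, but the difference did not pass the threshold (0.23, SE 0.083, adjusted p = 0.322, and 0.22 with an adjusted p of 0.392 without replicate 2). The response of A549 exceeded that of H446 by 0.76 (SE 0.106, adjusted p = 3.44e-05), and its difference from BEAS-2B was 0.25 (SE 0.106, adjusted p = 0.0838), or 0.26 without BEAS-2B 10 Gy replicate 2 (adjusted p = 0.0958). That difference was called after quantile normalization (0.32, adjusted p = 0.027), with the GC trend removed (0.34, adjusted p = 0.00858), without A549 control replicate 2 (0.32, adjusted p = 0.0374) and without BEAS-2B control replicate 1 (0.31, adjusted p = 0.0401).

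SRXN1 fell in both cancer lines. Irradiated A549 libraries read 111, 111 and 106 FPKM (-0.19, SE 0.037, adjusted p = 0.00113) and irradiated H446 libraries 23.9 each (-0.30, SE 0.039, adjusted p = 0.000297). BEAS-2B read 44.5, 43.7 and 41.6 FPKM (0.10, SE 0.075, adjusted p = 0.566, and 0.10 without replicate 2). TXNRD1 and ME1 passed the threshold in no line. TXNRD1 read 418, 417 and 446.45 FPKM in irradiated BEAS-2B cells, below the controls (-0.25, SE 0.085, adjusted p = 0.291, and -0.24 without replicate 2), and with all 18 libraries in 1 fit that difference was called (adjusted p = 0.00989). It read 290, 306 and 293 FPKM in irradiated H446 cells (-0.05, adjusted p = 0.306) and 485, 507 and 509 in irradiated A549 cells (0.01, 95% confidence interval -0.07 to 0.09), overlapping the controls of both. ME1 read 20.1, 18.3 and 18.4 FPKM after irradiation in BEAS-2B (-0.09, and -0.06 without replicate 2), 27.1, 26.3 and 27.3 in H446 (-0.09, adjusted p = 0.121) and 65.4, 71.3 and 67.6 in A549 (-0.02, 95% confidence interval -0.11 to 0.07). Its groups overlapped in BEAS-2B and A549, and in H446 the irradiated libraries lay below the controls.

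**Figure D3:**
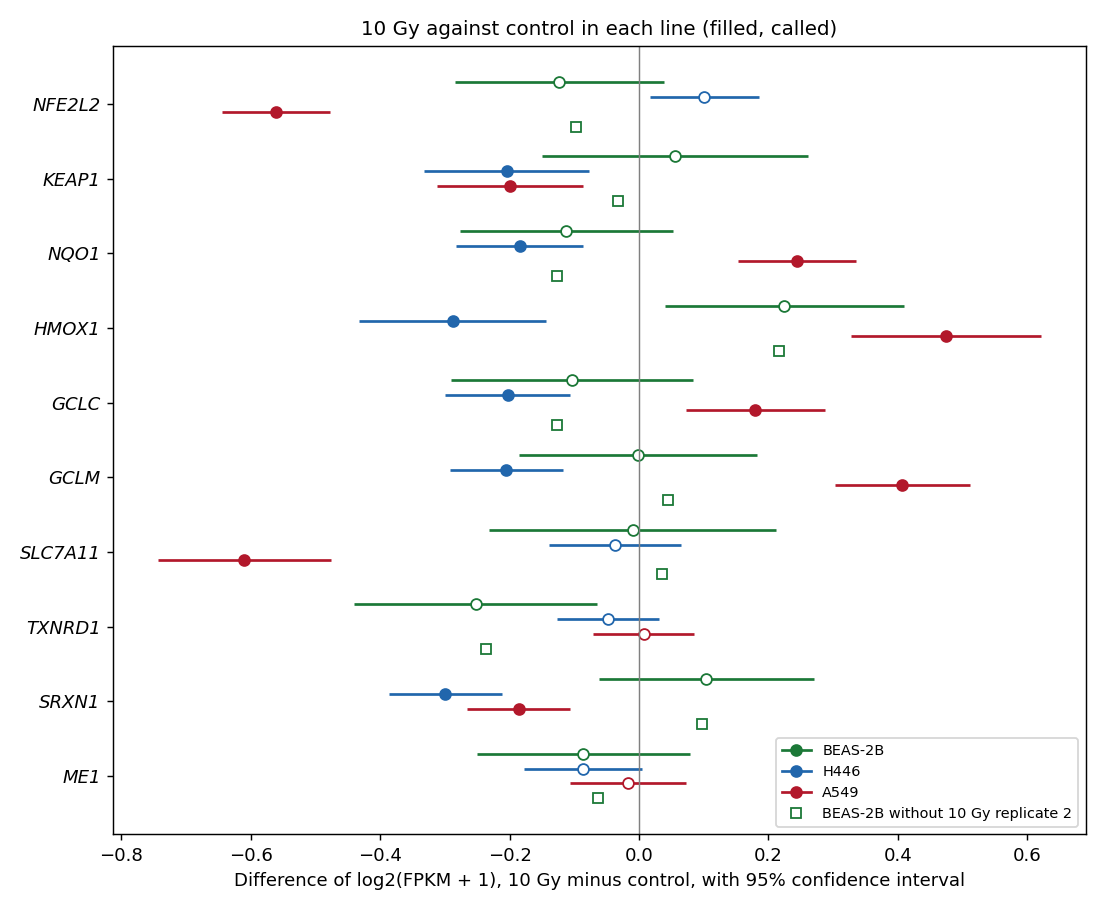
Differences between 10 Gy and control libraries for each gene and line on the log2(FPKM + 1) scale, with 95% confidence intervals from limma (3 libraries per group); filled points were called at an adjusted p under 0.05, and squares give BEAS-2B without 10 Gy replicate 2. In A549, NFE2L2 (-0.56) and SLC7A11 (-0.61) lie left of 0 and HMOX1 (0.48) and GCLM (0.41) right of it.

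The responses of 2 lines were compared in 1 fit of 18 libraries. That fit takes 1 spread per gene over all lines. In the fits of single lines, the SE of each of the 10 genes was largest in BEAS-2B. For TXNRD1 it was 0.085 there, against 0.036 in H446 and in A549. The p-values of contrasts with BEAS-2B may therefore understate the spread of that line. Between A549 and BEAS-2B, 7 of the 10 genes were called, 4 higher in A549 (GCLM, NQO1, GCLC and TXNRD1) and 3 lower (SLC7A11, NFE2L2 and SRXN1), where 30.6% of 13071 genes were called, 14.6% higher and 16% lower. Between A549 and H446, 6 were called, 4 higher (HMOX1, GCLM, NQO1 and GCLC) and 2 lower (NFE2L2 and SLC7A11), where 34.6% of all genes were called, 19.3% higher and 15.3% lower. Between H446 and BEAS-2B, 3 were called, 1 higher (NFE2L2) and 2 lower (HMOX1 and SRXN1), where 22.7% were called, 8.99% higher and 13.7% lower. Quantile normalization gave 2151 genes higher and 1934 lower for A549 minus BEAS-2B, in place of 1910 and 2089. For A549 minus H446 it gave 2239 higher and 2296 lower, in place of 2524 and 2002. For H446 minus BEAS-2B it gave 1542 higher and 1238 lower, in place of 1175 and 1796. Removal of the GC trend gave 739 higher and 628 lower for H446 minus BEAS-2B. The call of NFE2L2 (0.22, SE 0.066, adjusted p = 0.0222) was lost without H446 10 Gy replicate 2 (adjusted p = 0.0614) or BEAS-2B 10 Gy replicate 1 (adjusted p = 0.0582). Without BEAS-2B 10 Gy replicate 2 the 7 calls between A549 and BEAS-2B were kept, and GCLM was called between H446 and BEAS-2B as well (-0.25, adjusted p = 0.0288; all libraries -0.20, adjusted p = 0.0667). KEAP1 was not called with all libraries, at -0.26 for A549 minus BEAS-2B (adjusted p = 0.0583) and -0.26 for H446 minus BEAS-2B (adjusted p = 0.0653), but was without BEAS-2B 10 Gy replicate 3 (-0.33, adjusted p = 0.00796, and -0.34, adjusted p = 0.00834) and without BEAS-2B control replicate 2 (-0.28, adjusted p = 0.047, and -0.29, adjusted p = 0.0486). Without BEAS-2B 10 Gy replicate 2 the KEAP1 differences were -0.17 (adjusted p = 0.147) and -0.17 (adjusted p = 0.169), and with the GC trend removed -0.14 (adjusted p = 0.193) and -0.01 (adjusted p = 0.942). For H446 minus BEAS-2B, TXNRD1 went from 0.20 (adjusted p = 0.0523) to 0.24 (adjusted p = 0.0195) without the first of these libraries and to 0.27 (adjusted p = 0.00398) without the other, when GCLM was also called (-0.22, adjusted p = 0.0498), but was 0.19 without BEAS-2B 10 Gy replicate 2 (adjusted p = 0.101) and 0.17 with the GC trend removed (adjusted p = 0.115). With all libraries TXNRD1 was called after quantile normalization (0.20, adjusted p = 0.0338), with equal library totals (0.21, adjusted p = 0.0251) and among genes of at least 1 FPKM in every library (adjusted p = 0.0481). With the GC trend removed, HMOX1 for H446 minus BEAS-2B was -0.30 (adjusted p = 0.0444) in place of -0.51, and GCLM was called at -0.38 (adjusted p = 0.00167). These contrasts share libraries, so their counts are not independent.

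Of the 53 pathway genes, all tested in A549, 28 were called higher and 9 lower after irradiation (median 0.14, beside 0.00 over all genes), where 51.7% of all genes were called, 25.3% higher and 26.4% lower. The conjugation, reduction and export list had 12 of 13 called higher and 1 lower, with ALDH3A1 rising from a mean of 657 to 1956 FPKM (1.57), AKR1C1 from 221 to 509 (1.2) and AKR1C3 from 340 to 707 (1.05). Among the regulators 1 of 11 was called higher and 5 lower, in all about the share of all genes, and the largest falls were those of MAFF (-1.17), MAFK (-0.89) and NFE2L1 (-0.85). In the glutathione list 6 of 9 were called higher, among them the peroxidase GPX2, from a mean of 1.54 to 3.11 FPKM (0.71), and GGT1, from 23.4 to 29.4 FPKM, and 1 was lower, SLC3A2, the partner of SLC7A11 (-0.87). The thioredoxin list had 2 of 5 called higher, with the peroxiredoxin PRDX1 at 0.53, and 1 lower. NADPH supply had 3 of 5 higher, with TKT at 0.39 and PGD at 0.33, and haem and iron 3 of 6 higher, with BLVRA at 0.33, and 0 lower in either. Of the 4 other NRF2 targets 1 was higher and 1 lower. In H446, 49 of the 53 were tested, with 3 called higher and 19 lower (median -0.13, beside -0.03 over all genes), where 38.4% of all genes were called, 14.8% higher and 23.6% lower. ALDH3A1 (-0.77), SLC48A1, a haem transporter (-0.58), TRIM16L (-0.49) and SQSTM1, an autophagy receptor that binds KEAP1 (-0.43) were among those that fell, and the 3 higher were AKR1C1 (0.21), CUL3 (0.14) and IDH1 (0.11). These H446 list counts are given without quantile normalization or GC correction. Over all genes in H446, quantile normalization gave 2171 higher and 2188 lower, and GC trend removal gave 1814 and 1703. In BEAS-2B, 43 were tested and 0 were called (median 0.05, beside 0.00 over all genes), and without 10 Gy replicate 2, 1 was called higher, SESN2, also a known p53 target, beside 1.99% of all genes. Because that library was singled out by its low p53 targets, leaving it out favours a call of such a gene, and nothing is drawn from it. NR0B1, which represses nuclear receptors, was not tested in BEAS-2B because only 2 of the 6 libraries reached 1 FPKM. It read 0.51, 0.41 and 0.17 FPKM in the controls and 6.95, 0.41 and 11.7 in 10 Gy replicates 1, 2 and 3, and is named because of these values.

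SLC7A11 and SESN2 are also known targets of the stress factor ATF4. All 7 genes of the ATF4 list fell in A549 after irradiation, where 26.4% of all genes were called lower, with TRIB3 at -2.01, ASNS at -1.65 and DDIT3 at -1.63, whereas in H446 1 was called higher and 3 lower, where 38.4% of all genes were called. In BEAS-2B 0 were called, or 1 higher (DDIT3) without 10 Gy replicate 2, where 1.99% of all genes were. DDIT3 read 31.4, 13.0 and 43.9 FPKM in 10 Gy replicates 1, 2 and 3, lowest in the same library as the p53 targets. Leaving that library out favours such a call, and nothing is drawn from the call. All 8 p53 targets rose in A549, where 25.3% of all genes were called higher, led by FDXR (1.78), MDM2 (1.76) and CDKN1A (1.54), and 0 of 8 were called in H446 and in BEAS-2B with all libraries. They are not counted without BEAS-2B 10 Gy replicate 2, since they are the genes by which it was singled out. Whether either group has a part in the values of the 10 genes was not tested.

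**Figure D4:**
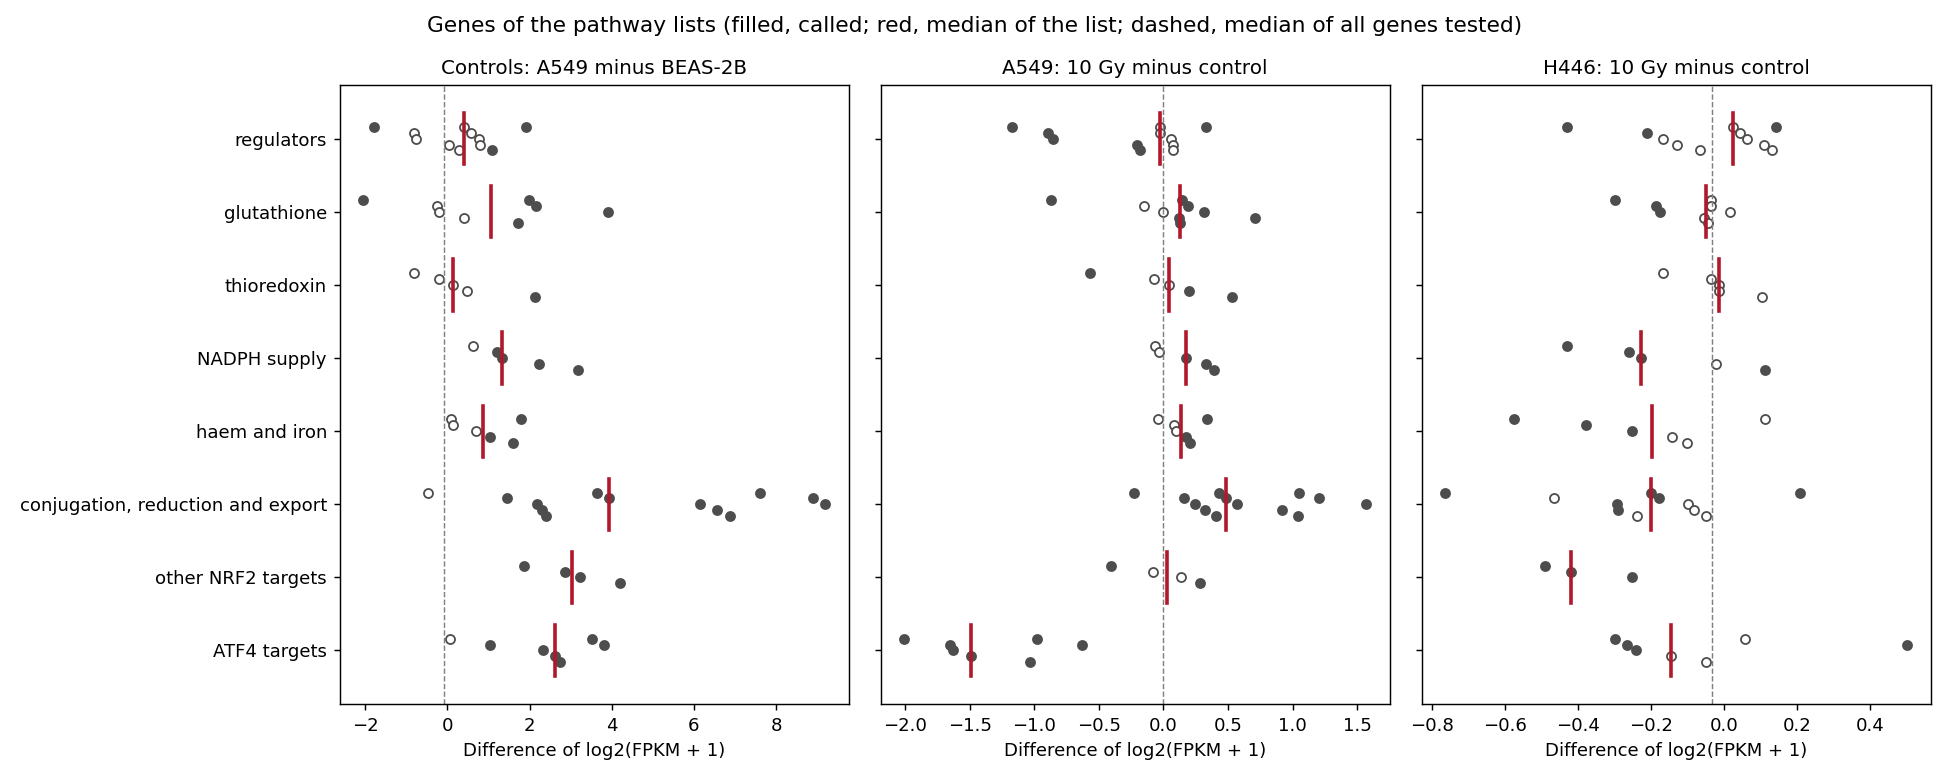
Genes of the pathway lists and of the ATF4 list as points on the log2(FPKM + 1) scale, for A549 against BEAS-2B controls and for 10 Gy against control in A549 and H446; filled points were called, the red line is the list's median and the dashed line the median of all genes tested. The horizontal axes differ in range: the conjugation, reduction and export list reaches 9.20 between the lines and 1.57 after irradiation of A549.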

How the data were processed

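The authors deposited 1 table of normalized values for 18475 genes, taken here to be FPKM because totals differ between libraries. The submitters' processing notes name HISAT2 2.0.4, Bowtie2 2.2.5, RSEM 1.2.12 and hg38. Symbols of 18181 genes were matched by Entrez number. Depth is unknown. Steps between low values, under 3 rules tried in turn, gave relative depths of 0.953 to 1.118.

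Genes with at least 1 FPKM in at least 3 libraries were tested with limma 3.58.1 (trend) in R 4.3.3 on log2(FPKM + 1), with Benjamini-Hochberg adjustment over all genes tested. Fits held the 9 controls for lines, 6 libraries for irradiation in a line, and 18 for differences in response. Scripts were tested on simulated data. Members and lists were chosen with earlier results of these data known. Named were the 10 genes, up to 3 called genes per list with the largest differences and the 5 nearest profiles. The other aldo-keto reductase values were added after they were seen. The labels do not state that replicates were separate cultures. The study states that each experiment was repeated 3 or more times and gives n = 3 for the RNA-seq, without naming separate cultures. The p-values may therefore measure only the spread between these samples. Alternatives were quantile and total scaling, filters, a pseudocount of 0.1, no trend, a replicate block, GC trend removal (loess span 0.5), other thresholds, 1 fit of all libraries and each library left out. Tables and figures were made in Python 3.11.15 (matplotlib 3.10.9, numpy 2.4.6, pandas 2.3.3).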

Additional observations from a re-analysis of the deposited data

Results flagged for a closer look

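For the following genes the response to 10 Gy differed between 2 lines by the limma test of the difference itself. The threshold was an adjusted p under 0.05 over 13071 genes, and contrasts with BEAS-2B carry the limit on its spread given above. Values are differences of the log2 changes. For A549 minus BEAS-2B they were 0.28 for GCLC, 0.36 for NQO1, 0.26 for TXNRD1, 0.41 for GCLM, -0.44 for NFE2L2, -0.29 for SRXN1 and -0.60 for SLC7A11. Without BEAS-2B 10 Gy replicate 2 they were 0.31, 0.37, 0.24, 0.36, -0.46, -0.28 and -0.65 in the same order. TXNRD1 was called in neither line by the fit of that line's 6 libraries, but in the fit of all 18 its change in BEAS-2B was called (-0.25, adjusted p = 0.00989).

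For A549 minus H446 the differences were 0.38 for GCLC, 0.43 for NQO1, 0.76 for HMOX1, 0.61 for GCLM, -0.66 for NFE2L2 and -0.57 for SLC7A11. GCLC, NQO1, HMOX1 and GCLM were called higher in A549 and lower in H446, although with the GC trend removed HMOX1 was not called in H446 (-0.16, adjusted p = 0.0797). For H446 minus BEAS-2B they were 0.22 for NFE2L2, -0.40 for SRXN1 and -0.51 for HMOX1, and 0.20, -0.40 and -0.50 without BEAS-2B 10 Gy replicate 2. The NFE2L2 call was lost without H446 10 Gy replicate 2 (adjusted p = 0.0614) or BEAS-2B 10 Gy replicate 1 (adjusted p = 0.0582). NFE2L2 was called in neither of these lines by the fit of that line's 6 libraries. With the GC trend removed, HMOX1 for H446 minus BEAS-2B was -0.30 (adjusted p = 0.0444), and GCLM, not called with all libraries and no correction, was -0.38 (adjusted p = 0.00167).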

How the results depend on the processing

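Under quantile and total scaling, a pseudocount of 0.1, no trend and the GC correction, counts of genes called stayed within 1.5 times of those reported, except H446 minus BEAS-2B with the GC correction (1367 genes). No change among the 10 genes reversed where either value was called. Asking for 1 FPKM in every library, which tests fewer genes, gave 2091, 2109 and 1767 genes for A549 against BEAS-2B, A549 against H446 and H446 against BEAS-2B; no limit on the difference gave 10937, 10854 and 10621, with 9, 8 and 9 of the 10 genes. A limit of 1 on the log2 change after irradiation left 20 genes in H446 and 107 in A549, with 0 of the 10 in each. An adjusted p under 0.01 left 2529 genes in H446, and 2308, 2824 and 1208 for the responses of A549 minus BEAS-2B, A549 minus H446 and H446 minus BEAS-2B. In BEAS-2B, 1 gene was called without a filter and 822 with all libraries in 1 fit (1 of the 10).

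Whether replicate numbers pair the libraries was not settled. Correlations of same-numbered deviations were -0.106 to 0.3, and some libraries, but not every one, correlated best with their own number. Deviations from a mean of so few libraries constrain each other, so these correlations cannot decide it. A replicate block gave 439 genes in BEAS-2B and called 8 of the 10 for the response of A549 minus BEAS-2B, with KEAP1 added (adjusted p = 0.0448), and 5 for H446 minus BEAS-2B, with KEAP1 (adjusted p = 0.0493) and TXNRD1 (adjusted p = 0.0451) added.

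Leaving out 1 library at a time gave 0 to 233 genes in BEAS-2B (0 of the 10 each time) and, for H446 minus BEAS-2B, 1811 genes (without BEAS-2B control replicate 1) to 4532 (without BEAS-2B 10 Gy replicate 3), with 2 to 6 of the 10. The causes were not tested. DESeq2 was not run, since the values are no counts, and unknown depth limits the precision of low values such as SLC7A11 in BEAS-2B.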
